A study of Mus musculus with 9 samples.

Results

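The mRNAs of the translation initiation and elongation factors were examined in RNA-Seq counts of MyC-CaP cells treated with recombinant asporin (ASPN). Members were the genes whose symbol begins with Eif and a digit from 1 to 6, or with Eef and 1 or 2, with Eif2ak2 left out, and 67 of the 15384 genes in the table met this rule. MyC-CaP is a mouse prostate cancer line, established from a tumor of a mouse whose prostate epithelium carried a MYC transgene, and ASPN is a small proteoglycan that stromal fibroblasts secrete. All 9 libraries came from this 1 line after starvation without serum and calcium for 6 to 12 hours, with 3 libraries at 0 hours, 3 at 12 hours and 3 at 24 hours of 100 ng/mL mouse ASPN. ASPN-treated is also the label of the 0-hour libraries, and these libraries were used as the starting point. No library of cells kept for 12 or 24 hours without ASPN is among the 9, so ASPN and the hours in culture cannot be told apart in any comparison. The replicates are labeled as biological and were plated in triplicate wells, so p-values measure the spread between these cultures.

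Translation starts when initiation factors bring the initiator tRNA and the small ribosomal subunit to an mRNA. eIF2 delivers the tRNA, eIF2B recharges eIF2 with GTP, eIF3 is the large scaffold on the small subunit, and the eIF4 factors bind the mRNA cap and unwind the leader. Elongation factors then carry each aminoacyl tRNA to the ribosome and move the ribosome along the mRNA. The mRNAs of elongation factors and of several initiation factors are themselves known for a pyrimidine-rich start through which mTOR signaling controls their translation, a step that mRNA counts do not measure.

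Libraries held 41881191 to 52993821 counts, and 3 counts, taken as the limit of detection, correspond to 0.0566 to 0.0716 CPM (counts scaled to a common library size). Levels are given as CPM after scaling with the trimmed mean of M-values (TMM), and the TMM factors were 1.04 to 1.07 at 0 and 12 hours and 0.898 to 0.911 at 24 hours. Of the prostate markers, Hoxb13 was at 67.5 to 104 CPM and Krt8 at 24.8 to 42.3 CPM, whereas Epcam, Cdh1 and Tmprss2 had at most 10 counts in a library, so that 3 defining markers of the labeled epithelial-like type were at or near 0. Pdgfra was at 8.58 to 13.8 CPM, Cd68 had 12 to 37 counts and Dcn 7 to 29, while Pecam1, Cd3e, Cdh5 and Col1a1 had at most 8. In bulk RNA, fewer cells of a type and less RNA per cell cannot be told apart.

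Of the 67 members, 63 passed the filter on low counts and were tested in each comparison. The other 4 were near or below the limit of detection. They were Eif4e3, with 1 count in all libraries together, Eif4ebp3, with 0 to 13 counts, and the Eif4a3-like genes Eif4a3l1 and Eif4a3l2, with at most 12 counts. Per kilobase of exon, Eef1a1 had the highest mean level over the 9 libraries (7706 CPM per kb), followed by Eef2 (2673) and Eef1g (728), and Eif3h and Eif1 were both at 444. Members took 3.91% to 4.15% of a library's counts at 0 hours, 3.94% to 4.05% at 12 hours and 5.99% to 6.21% at 24 hours.

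At 12 hours the translation factor mRNAs were close to their starting levels. No member was called, where a call in this text means an adjusted p of 0.05 or less and a change of at least 1.5-fold, whereas 1.6% of the 11410 tested genes were called. The log2 fold changes of the 63 members lay between -0.27 and 0.21, with a median of -0.004, against -0.005 for all tested genes. By the adjusted p alone (edgeR's quasi-likelihood test), 5 members differed from 0 hours, beside 10.3% of all tested genes. Of these, 3 were higher, beside 6.85% of all tested genes, and 2 were lower, beside 3.47%. An unadjusted p under 0.05 was found for 7 members and 21.4% of all tested genes. DESeq2 called 0 members as well.

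Among these 5, Eif6, which keeps the large ribosomal subunit from joining too early, had 182, 167 and 178 CPM at 0 hours and 200.1, 203 and 206 CPM at 12 hours. All 12-hour libraries were above those of 0 hours, by a log2 fold change of 0.21 (SE 0.036, edgeR's adjusted p = 0.00069). Eif3c, a core subunit of eIF3, had 516 to 540.2 CPM at 0 hours and 562 to 589 CPM at 12 hours, a log2 fold change of 0.13 (SE 0.033, edgeR's adjusted p = 0.013). The adjusted p was 0.072 with the length and GC correction, 0.051 without 0-hour replicate 3, 0.11 without 12-hour replicate 2 and 0.077 without 12-hour replicate 3 (edgeR). Eif1a, the factor that opens the small subunit for scanning, had a log2 fold change of 0.11 (SE 0.030, edgeR's adjusted p = 0.031) that rested on the choice of fit. The adjusted p was 0.053 with total counts, 0.063 in 1 fit of all 9 libraries, 0.073 with the replicate block, 0.15 with the length and GC correction and 0.092 to 0.15 in the 5 of 6 fits with 1 library left out that lost it, all but the one without 0-hour replicate 1 (edgeR). Eif2b4, the delta subunit of eIF2B, had a log2 fold change of -0.20 (SE 0.048, edgeR's adjusted p = 0.011), with an adjusted p of 0.064 without 12-hour replicate 1 and 0.06 without 12-hour replicate 2. Eef1aknmt, a methyltransferase of eEF1A that is also named Mettl13, fell by 0.27 (SE 0.046, edgeR's adjusted p = 0.00078). All 5 differences were smaller than 1.5-fold.

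At 24 hours, 27 of the 63 members were called, against 28.8% of the 11444 tested genes. Of these, 21 were higher than at 0 hours (33.3% of the tested members, against 12% of all tested genes) and 6 were lower (9.52%, against 16.8%). The median log2 fold change was 0.45 over the members and -0.02 over all tested genes. By the adjusted p alone, 58 members differed, against 70.9% of all tested genes, with 45 higher and 13 lower, against 34.4% and 36.5%. The 24-hour libraries lay entirely above those of 0 hours for 44 members and entirely below for 13, where 74% of all tested genes did so, 35.9% above and 38% below.

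**Figure D1:**
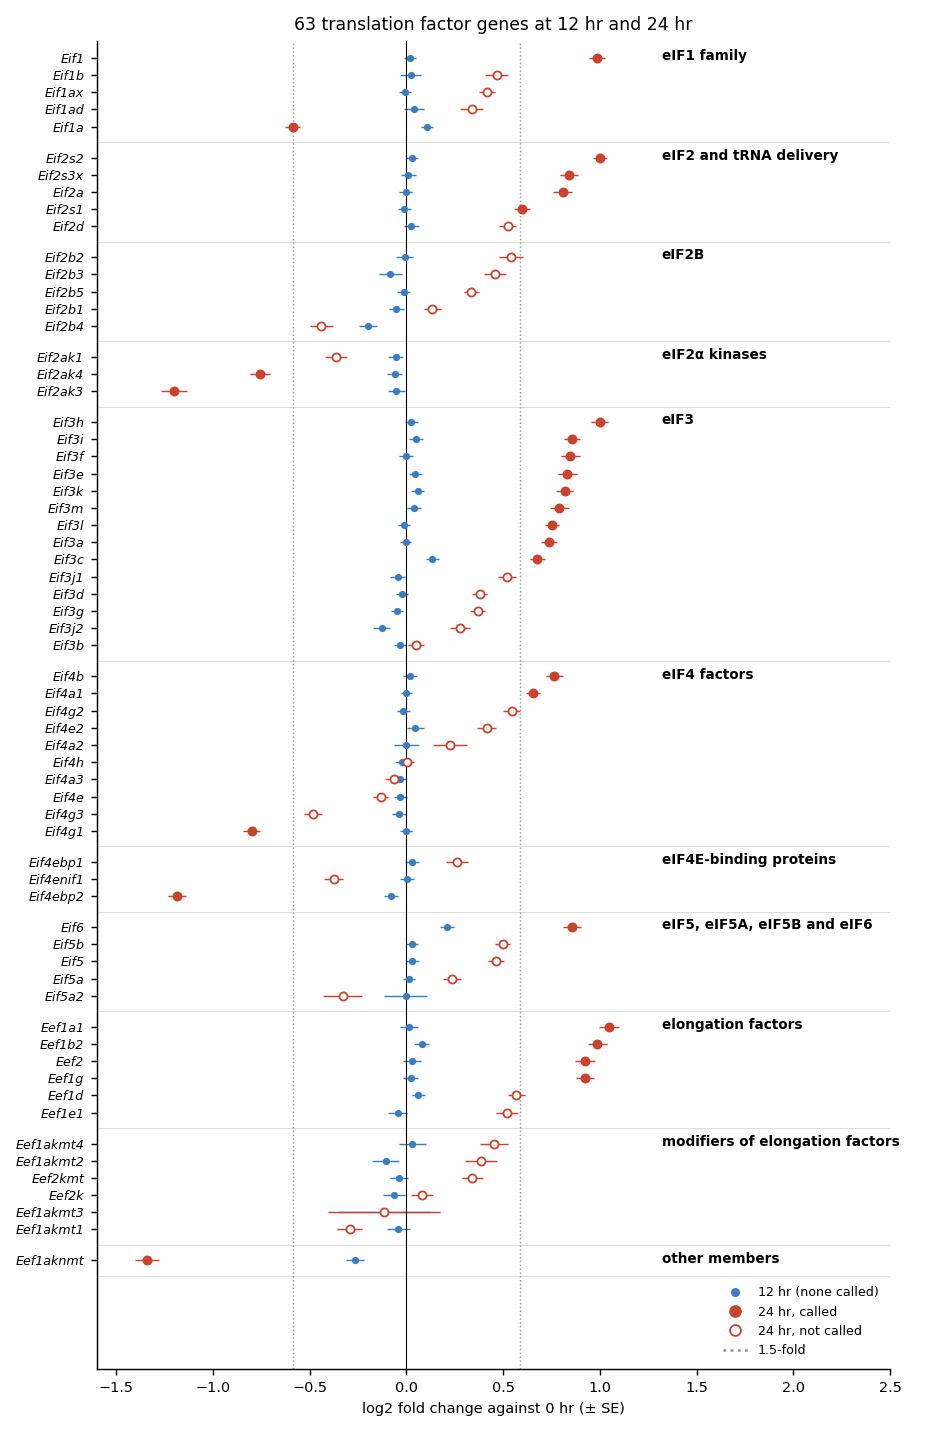
Log2 fold change against 0 hours (x axis, with its SE) of the 63 tested translation factor genes (y axis), grouped by role, at 12 hours (blue) and 24 hours (red, filled where called). At 12 hours every value lies between -0.27 and 0.21, while at 24 hours the eIF3, eIF2 and elongation factor genes lie right of 0 and the eIF2α kinases left of it.

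The direction differed by role. At 24 hours, 4 of 6 elongation factors, 4 of 5 genes of eIF2 and tRNA delivery and 9 of 14 eIF3 genes were called higher, where 12% of all tested genes were higher and 16.8% lower, and none of these groups held a gene called lower. Of the 3 eIF2α kinases 2 were called lower. The eIF4 factors had 2 genes called higher and 1 lower, and the eIF4E-binding proteins 1 called lower. As a share of all library counts, with no TMM scaling, elongation factors went from 2.53% ± 0.13 (SD, n = 3) at 0 hours to 2.54% ± 0.053 at 12 hours and 4.33% ± 0.088 at 24 hours. eIF3 went from 0.466% ± 0.0029 to 0.466% ± 0.0017 and 0.65% ± 0.012, and the eIF2α kinases from 0.0214% ± 0.00081 to 0.0203% ± 0.00049 and 0.0113% ± 0.00022. Without Eef1a1 and Eef2, the remaining members still went from 1.8% ± 0.0099 at 0 hours to 2.3% ± 0.037 at 24 hours.

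**Figure D2:**
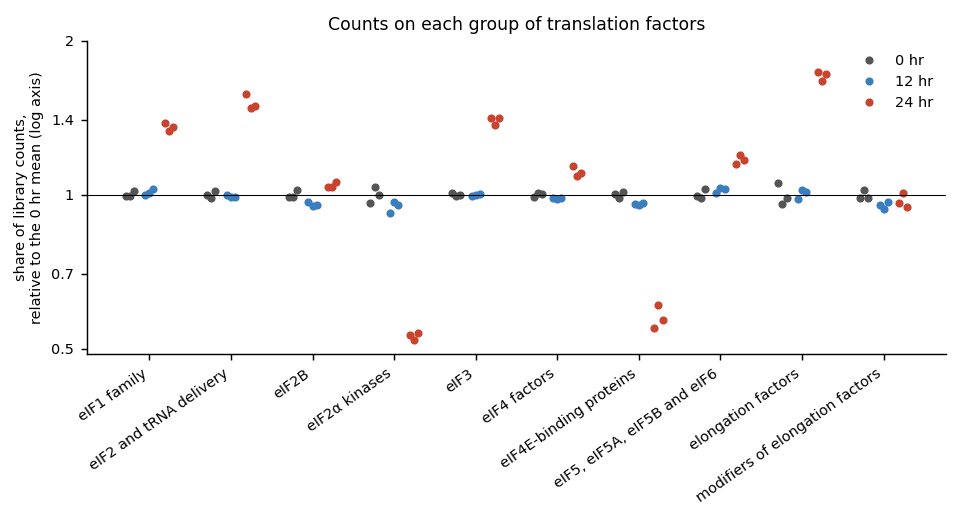
Share of a library's counts on the genes of each role, relative to the mean of the 0-hour libraries (y axis, log scale), with 1 point per library at 0, 12 and 24 hours. In every 24-hour library the elongation factors and the eIF1, eIF2, eIF2B, eIF3, eIF4 and eIF5 to eIF6 groups lie above 1. The eIF2α kinases and eIF4E-binding proteins lie below 1, and the modifiers of elongation factors on both sides of it.

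With total counts in place of TMM, all tested genes had a median of -0.24 at 24 hours on the log2 scale and the members one of 0.23, with 14 members called higher and 10 lower, beside 6.1% and 26.3% of all tested genes. The 4 members called lower here but not with TMM were Eif4g3, Eif2b4, Eif4enif1 and Eif2ak1. This scaling moved the log2 fold change of each of the 63 members at 24 hours by -0.223 to -0.221, so that values of members near 0 below depend on it. A change of scaling moves all genes nearly alike, so the difference between members and all genes had to stay as under TMM. It is no separate support. With TMM factors computed without the members, 21 were called higher and 5 lower, beside 12.1% and 16.8% of all tested genes.

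The elongation factors had 6 members, all higher at 24 hours by the adjusted p, and 4 of them were called. Gene positions are in GRCm38. Eef1a1 (ENSMUSG00000037742.14, chr9:78478449-78489151), which delivers aminoacyl tRNAs to the ribosome, had 15231, 13384 and 13832 CPM at 0 hours, 13769, 14678 and 14362 CPM at 12 hours, and 29595, 28419 and 29630 CPM at 24 hours. The 24-hour libraries were far above the others and those of 0 and 12 hours overlapped. The rise was 2.07-fold, or 1.05 on the log2 scale (SE 0.053, edgeR's adjusted p = 1.5e-09). Eef2 (ENSMUSG00000034994.10, chr10:81176631-81182498), the translocase that moves the ribosome by 1 codon, had 7345, 6417 and 6661 CPM at 0 hours, 6772, 7017 and 7025 CPM at 12 hours, and 12934, 12578 and 13208 CPM at 24 hours. It rose by 0.92 on the log2 scale (SE 0.053, edgeR's adjusted p = 4.8e-09), and no 24-hour library overlapped with an earlier one. Eef1b2 and Eef1g, subunits of the exchange factor that recharges eEF1A, rose by log2 fold changes of 0.99 (SE 0.048) and 0.92 (SE 0.046). Eef1d, another subunit of that complex, had 313 to 334 CPM at 0 hours and 462 to 488 CPM at 24 hours, a log2 fold change of 0.57 just short of the 1.5-fold threshold, which is 0.585 on this scale. It was past the threshold after correction for transcript length and GC content (0.72), with upper-quartile factors, without 0-hour replicate 1 and without 24-hour replicate 2. Eef1e1, a scaffold protein of the aminoacyl tRNA synthetase complex, had a log2 fold change of 0.52 (SE 0.055). Of the 75-base stretches of Eef1a1 transcripts 41.7% also occur in other genes, and of those of Eef1g 56.5%, so reads on these genes may be split or lost.

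**Figure D3:**
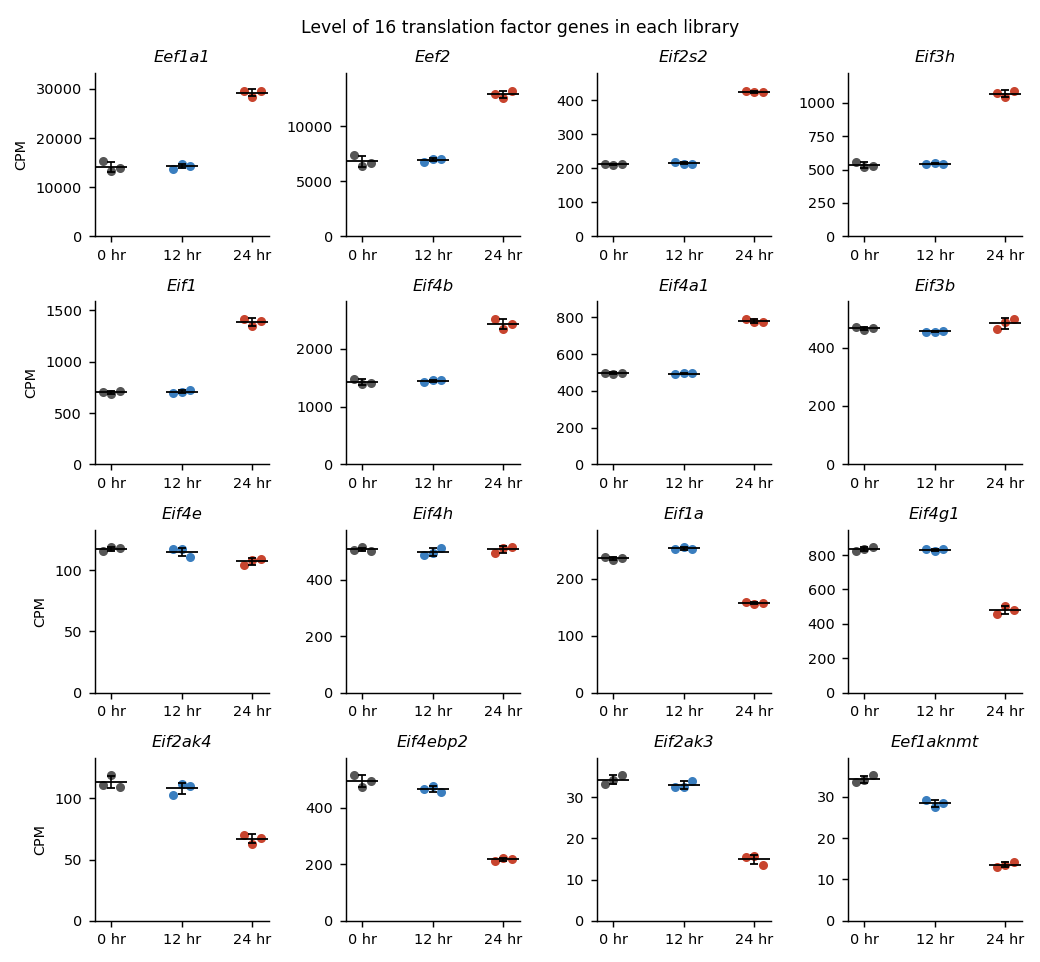
CPM (y axis, TMM scaled, from 0) of 16 translation factor genes in each library at 0, 12 and 24 hours, with the mean and SD of 3 libraries. The 24-hour points of Eef1a1, Eef2, Eif2s2, Eif3h, Eif1, Eif4b and Eif4a1 stand above the earlier ones, those of Eif1a, Eif4g1, Eif2ak4, Eif4ebp2, Eif2ak3 and Eef1aknmt below, and those of Eif3b and Eif4h overlap with 0 hours.

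All subunits of eIF2 were called higher at 24 hours. Eif2s2 (ENSMUSG00000074656.12, chr2:154871410-154892935), the beta subunit, had 212, 210.1 and 214 CPM at 0 hours, 219, 214 and 214 CPM at 12 hours, and 428, 424 and 423 CPM at 24 hours. Its level doubled, with a log2 fold change of 1.00 (SE 0.037, edgeR's adjusted p = 1.5e-10). Eif2s3x, the gamma subunit that binds the tRNA and GTP, had 111 to 121 CPM at 0 hours and 203 to 217 CPM at 24 hours, a log2 fold change of 0.84 (SE 0.046). Eif2s1, the alpha subunit that the stress kinases phosphorylate, had 136, 129.6 and 137 CPM at 0 hours and 209, 199 and 202 CPM at 24 hours. Its log2 fold change of 0.60 (SE 0.042) was near the threshold, and it was no longer called with total counts (0.38), with edgeR's test against 1.5-fold, after correction for length and GC (0.50), without 0-hour replicate 2 (0.58) or without 24-hour replicate 1 (0.58). Eif2a, an alternative tRNA carrier that is a separate gene from the alpha subunit, rose by 0.81 (SE 0.049), while Eif2d, which can bring tRNA to the ribosome without GTP, had a log2 fold change of 0.52 (SE 0.045) that was past the threshold after the length and GC correction (0.68). Stretches of 75 bases shared with other genes made up 35.7% of those of Eif2s3x and 22.4% of those of Eif2s2.

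No subunit of eIF2B, the exchange factor that phosphorylated eIF2 inhibits, was called at 24 hours. By the adjusted p alone, 4 of the 5 were higher and 1 was lower. Of these 4, Eif2b1, the alpha subunit, had a log2 fold change of 0.13 (SE 0.044, edgeR's adjusted p = 0.015) that was -0.09 with total counts and 0.06 after the length and GC correction. Eif2b2, the beta subunit, had 46.5, 46.4 and 48.4 CPM at 0 hours and 62.8, 66.8 and 75.4 CPM at 24 hours, a log2 fold change of 0.54 (SE 0.062) that was 0.60 and called without 24-hour replicate 1. Eif2b5, the catalytic epsilon subunit and the most abundant per kilobase, had a log2 fold change of 0.33 (SE 0.039). Eif2b4 went the other way, with 31.5, 30.8 and 29.8 CPM at 0 hours, 26, 26.5 and 27.5 CPM at 12 hours, and 22.4, 21.8 and 23.7 CPM at 24 hours. The libraries of the 3 times did not overlap, and the log2 fold change at 24 hours was -0.44 (SE 0.058, edgeR's adjusted p = 1.5e-05), or -0.66 and called with total counts.

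The 3 eIF2α kinases of the rule were all lower at 24 hours by the adjusted p, and 2 were called. These kinases slow initiation under stress by phosphorylating the alpha subunit of eIF2. Eif2ak3 (PERK, ENSMUSG00000031668.14, chr6:70844515-70905245), which senses unfolded proteins in the endoplasmic reticulum, had 33.2, 34.1 and 35.3 CPM at 0 hours, 32.4, 32.4 and 34 CPM at 12 hours, and 15.4, 15.7 and 13.6 CPM at 24 hours. It was 2.30-fold lower at 24 hours, with a log2 fold change of -1.20 (SE 0.068, edgeR's adjusted p = 4.1e-09). Eif2ak4 (GCN2), which senses uncharged tRNA, had 111, 119 and 109.7 CPM at 0 hours and 70.2, 63.1 and 67.5 CPM at 24 hours. Its log2 fold change of -0.76 (SE 0.051, edgeR's adjusted p = 2.2e-08) was -0.48 after the length and GC correction, where it was not called. Eif2ak1, the heme-regulated kinase, had 54.5 to 56.3 CPM at 0 hours and 39.5 to 46.5 CPM at 24 hours, a log2 fold change of -0.36 (SE 0.058) that was -0.18 after the length and GC correction and -0.59, and called, with total counts.

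eIF3 was the largest group, and 9 of its 14 members were called higher at 24 hours, with none lower. The subunits a, c, e, f, h, k, l and m, which form the octameric core of the complex, were all called, with log2 fold changes of 0.68 to 1.00. This division of eIF3 was made after the values were seen, and it carries no test. Eif3h (ENSMUSG00000022312.11, chr15:51786558-51865523) had 559, 519 and 529 CPM at 0 hours, 541, 546 and 544 CPM at 12 hours, and 1075, 1042 and 1091 CPM at 24 hours, a log2 fold change of 1.00 (SE 0.043, edgeR's adjusted p = 5.4e-10). Its 24-hour libraries were all above the other 6. Eif3f had 487, 441 and 451 CPM at 0 hours and 828, 801 and 852 CPM at 24 hours, with a log2 fold change of 0.85 (SE 0.047). Eif3a, the largest subunit, had 914, 925 and 909.8 CPM at 0 hours, 911, 907 and 916 CPM at 12 hours, and 1536, 1475 and 1574 CPM at 24 hours. It rose by 0.74 on the log2 scale (SE 0.041, edgeR's adjusted p = 3.8e-09).

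Of the 6 eIF3 genes outside the core, only Eif3i was called, with a log2 fold change of 0.85 (SE 0.041). Eif3b, the scaffold that binds the i and g subunits, had 471, 461 and 467 CPM at 0 hours, 453, 454 and 458 CPM at 12 hours, and 462, 487 and 498 CPM at 24 hours. The libraries of 0 and 24 hours overlapped, and the log2 fold change was 0.05 (SE 0.041, edgeR's adjusted p = 0.30). Its value depended on the fit, with -0.17 under total counts and 0.21 after the length and GC correction. Eif3g and Eif3d, which bind mRNA, had log2 fold changes of 0.37 (SE 0.040) and 0.38 (SE 0.039), of which that of Eif3g was 0.19 after the length and GC correction. Eif3j1 and Eif3j2, genes for the loosely attached j subunit, had 0.52 (SE 0.048) and 0.28 (SE 0.053), the latter 0.16 after that correction. These genes cannot be read separately with confidence, since 87.4% of the 75-base stretches of Eif3j2 occur in other genes, as do 37.7% of those of Eif3j1. An antisense gene overlaps 43.3% of the exon bases of Eif3d, and whether the counts use strand is not given in the sources used here. With total counts, Eif3a (0.52), Eif3c (0.45), Eif3l (0.53) and Eif3m (0.57) fell short of 1.5-fold.

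The cap-binding eIF4 factors moved in different directions. The helicase Eif4a1 had 496, 491 and 500.1 CPM at 0 hours and 792, 774 and 775 CPM at 24 hours, and rose by 0.65 on the log2 scale (SE 0.038, edgeR's adjusted p = 5.4e-09). Of its 75-base stretches 62.9% occur in other genes, and the call did not hold with total counts (0.43), in edgeR's test against 1.5-fold or after the length and GC correction (0.52). Eif4b, which stimulates the helicase, had 1482, 1384 and 1417 CPM at 0 hours and 2518, 2336 and 2423 CPM at 24 hours, a log2 fold change of 0.76 (SE 0.045) that was 0.54 and not called with total counts. Eif4h, a related cofactor, had 505, 515 and 503 CPM at 0 hours and 493, 514 and 516 CPM at 24 hours. The fitted difference was 0.001 on the log2 scale (SE 0.039, edgeR's adjusted p = 0.98), with -0.22 under total counts, 0.13 after the length and GC correction and a negative sign in some other fits.

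Eif4g1 (ENSMUSG00000045983.16, chr16:20668313-20692884), the scaffold that joins the cap-binding protein to eIF3, had 823, 837 and 847 CPM at 0 hours, 834, 823 and 836 CPM at 12 hours, and 455, 505 and 479 CPM at 24 hours. It was called lower at 24 hours, by a log2 fold change of -0.80 (SE 0.045, edgeR's adjusted p = 4.2e-09), while the eIF3 core and Eif4a1 were called higher. After the length and GC correction its change was -0.35, and the call was lost. Its homolog Eif4g3 had 119, 132 and 128 CPM at 0 hours and 90.1, 91.2 and 90.1 CPM at 24 hours, a log2 fold change of -0.48 (SE 0.046) that was -0.06 after the same correction and -0.71, and called, with total counts. Eif4g2 (DAP5), a relative that lacks the cap-binding contact, had 1248, 1187 and 1206 CPM at 0 hours and 1814, 1696 and 1796 CPM at 24 hours. Its log2 fold change of 0.54 (SE 0.043) was below the threshold, and 0.61 and called after the length and GC correction. The cap-binding protein Eif4e was at 116, 119 and 118 CPM at 0 hours and 104, 108 and 109.5 CPM at 24 hours, a log2 fold change of -0.13 (SE 0.040, edgeR's adjusted p = 0.0092). Its relative Eif4e2 had a log2 fold change of 0.41 (SE 0.050).

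Of the proteins that hold eIF4E away from eIF4G, Eif4ebp2 (ENSMUSG00000020091.15, chr10:61428491-61452661) was called lower. It had 516, 475 and 495 CPM at 0 hours, 468, 479 and 458 CPM at 12 hours, and 210.1, 223 and 219 CPM at 24 hours. Every 24-hour library was below the earlier ones, with a log2 fold change of -1.19 (SE 0.045, edgeR's adjusted p = 1.6e-10), or 2.28-fold lower. After the length and GC correction it was -0.78 and still called. Eif4ebp1 had 199, 204 and 205 CPM at 0 hours and 222, 265 and 241 CPM at 24 hours, a log2 fold change of 0.26 (SE 0.056) that was 0.04 with total counts and 0.16 after the length and GC correction. Eif4enif1, which carries eIF4E into the nucleus, had a log2 fold change of -0.38 (SE 0.047) that was -0.22 after that correction and -0.60, and called, with total counts.

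In the eIF1 family, Eif1 and Eif1a were called in opposite directions at 24 hours. Eif1, which guards the choice of start codon, had 705, 687 and 712 CPM at 0 hours, 694, 709 and 725 CPM at 12 hours, and 1417, 1349 and 1393 CPM at 24 hours. It rose by 0.98 on the log2 scale (SE 0.041, edgeR's adjusted p = 3.5e-10). Eif1a had 239, 233 and 236 CPM at 0 hours, 252, 256 and 253 CPM at 12 hours, and 159, 155 and 157 CPM at 24 hours. Its log2 fold change at 24 hours was -0.59 (SE 0.038, edgeR's adjusted p = 1.4e-08), at the edge of the threshold, and the call was lost with DESeq2, with RLE, upper-quartile or member-free TMM factors, and in edgeR's test against 1.5-fold. It was also lost without 0-hour replicate 1, 0-hour replicate 3 or 24-hour replicate 2, and the smallest change among these fits was -0.55. The X-linked Eif1ax, which encodes the same factor as Eif1a, had 211, 203 and 209 CPM at 0 hours and 275, 272 and 284 CPM at 24 hours, a log2 fold change of 0.42 (SE 0.039).

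Among the later initiation factors, Eif6 was called higher. It had 305, 326 and 323 CPM at 24 hours, a log2 fold change against 0 hours of 0.86 (SE 0.045, edgeR's adjusted p = 2.5e-09). Eif5, the GTPase activator of eIF2, had 335, 319 and 327 CPM at 0 hours and 464, 438 and 448 CPM at 24 hours, a log2 fold change of 0.46 (SE 0.041). Eif5b, the GTPase that joins the ribosomal subunits, had 0.50 (SE 0.040). Eif5a, which relieves stalled ribosomes and is the only protein known to carry hypusine beside its homolog, had 0.23 (SE 0.046), which was 0.01 with total counts and 0.10 after the length and GC correction. That homolog, Eif5a2, at 6.78 to 7.32 CPM at 0 hours and 5.33 to 5.81 CPM at 24 hours, had -0.33 (SE 0.10).

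The modifiers of elongation factors, counted without Eef1aknmt, had 6 members and gave no call. Eef2k, the kinase that halts eEF2, had 38.4, 37.6 and 34.9 CPM at 0 hours and 38.4, 41.2 and 37.5 CPM at 24 hours, with overlapping libraries and a log2 fold change of 0.08 (SE 0.058, edgeR's adjusted p = 0.23) that was -0.14 with total counts and 0.45 after the length and GC correction, each past the adjusted p and in opposite directions. The methyltransferases Eef1akmt2, Eef1akmt4 and Eef2kmt had log2 fold changes of 0.39 (SE 0.082), 0.45 (SE 0.074) and 0.34 (SE 0.055), and Eef1akmt1 had -0.29 (SE 0.064). After the length and GC correction Eef1akmt4 was at 0.30 and Eef1akmt1 at -0.55. Eef1akmt3 was at 26 to 55 counts per library, and its change of -0.11 (SE 0.29) was not resolved at this depth. In contrast with these, the eEF1A methyltransferase gene Eef1aknmt (ENSMUSG00000026694.19, chr1:162532127-162548551) was called lower. It had 33.5, 34 and 35.2 CPM at 0 hours, 29.2, 27.6 and 28.4 CPM at 12 hours, and 12.9, 13.5 and 14.2 CPM at 24 hours. The libraries of the 3 times were fully separate, and its log2 fold change at 24 hours of -1.34 (SE 0.062, edgeR's adjusted p = 8.4e-10) was the most negative of the 63 members.

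Between 12 and 24 hours, where the libraries of 0 hours play no part, 28 members were called, 22 higher and 6 lower at 24 hours, against 25.7% of the 11394 tested genes (10.4% higher and 15.3% lower). By the adjusted p alone, 47 members were higher and 12 lower, against 71.3% of all tested genes, of which 35.7% were higher and 35.6% lower. The median over the members was 0.45, against 0.004 over all tested genes. Both comparisons share the 24-hour libraries, and 26 members were called in both. Eif3c was called against 0 hours only, and its log2 fold change from 12 to 24 hours was 0.56 (SE 0.033). Eef1e1 and Eif3j1 were called against 12 hours only, both with a log2 fold change of 0.59 that fell below the threshold in most other fits. From 12 to 24 hours Eef1a1 rose by 1.05 (SE 0.033), Eif2s2 by 1.00 (SE 0.033) and Eif3h by 0.99 (SE 0.033), and Eif2ak3 fell by 1.13 (SE 0.065), Eif4ebp2 by 1.09 (SE 0.036) and Eif4g1 by 0.77 (SE 0.039). The largest part of each of these changes thus fell after 12 hours. After the length and GC correction the change from 12 to 24 hours was -0.32 for Eif4g1, which was then not called. It was -0.68 for Eif4ebp2, -0.86 for Eif2ak3, 0.89 for Eif2s2 and 0.80 for Eif3h.

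Ratios between related factors were compared within libraries, where scaling plays no part, as the log2 ratio of counts with 0.5 added. Transcript length and GC content were not corrected in these ratios. At 24 hours that correction moved the log2 fold change of Eif4g1 from -0.80 to -0.35 and that of Eif4ebp2 from -1.19 to -0.78. It moved Eif4g2 from 0.54 to 0.61 and Eif4ebp1 from 0.26 to 0.16. Of 12 pairs, 9 had both genes tested, which gave 27 comparisons. With 3 libraries against 3 the exact two-sided permutation test cannot go below p = 0.1, which is 0.14 after adjustment over the 27 comparisons, so none can pass the threshold. Counts of Eif4g2 were 1.52, 1.42 and 1.42 times those of Eif4g1 at 0 hours, 1.41, 1.47 and 1.44 times at 12 hours, and 3.98, 3.36 and 3.75 times at 24 hours. The 24-hour ratios were all above the earlier ones, and the log2 ratio was higher by 1.34 (SE 0.079, exact permutation p = 0.1). The ratio of Eif4ebp2 to Eif4ebp1 was 2.6, 2.33 and 2.42 at 0 hours, 2.3, 2.43 and 2.11 at 12 hours, and 0.947, 0.842 and 0.911 at 24 hours. Eif4ebp2 thus had more counts than Eif4ebp1 before 24 hours and fewer at 24 hours, a change of -1.44 in the log2 ratio (SE 0.068, exact permutation p = 0.1).

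Eif1ax had 0.881, 0.871 and 0.886 times the counts of Eif1a at 0 hours, 0.819, 0.793 and 0.825 times at 12 hours, and 1.73, 1.75 and 1.81 times at 24 hours. The libraries of the 3 times did not overlap, and the log2 ratio was 1.00 higher at 24 hours than at 0 hours (SE 0.020, exact permutation p = 0.1). The ratio of Eif4e2 to Eif4e went from 0.592 ± 0.026 (SD, n = 3) to 0.867 ± 0.039, and that of Eif4a2 to Eif4a1 went from 0.384 ± 0.053 to 0.285 ± 0.029. In all 9 pairs the ratios of 24 hours did not overlap with those of 0 hours, where the levels of 74% of all single tested genes did not overlap either. At 12 hours 2 of the 9 pairs did not overlap with 0 hours, Eif1ax to Eif1a and Eif3j2 to Eif3j1. The latter rests on genes with much shared sequence and cannot be read with confidence. Of the 11410 single genes tested at 12 hours, 1559 lay entirely above 0 hours and 1532 entirely below. Eef1a2 and Eif2s3y, which would complete 2 further pairs, were not found by symbol among the genes of the count table.

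**Figure D4:**
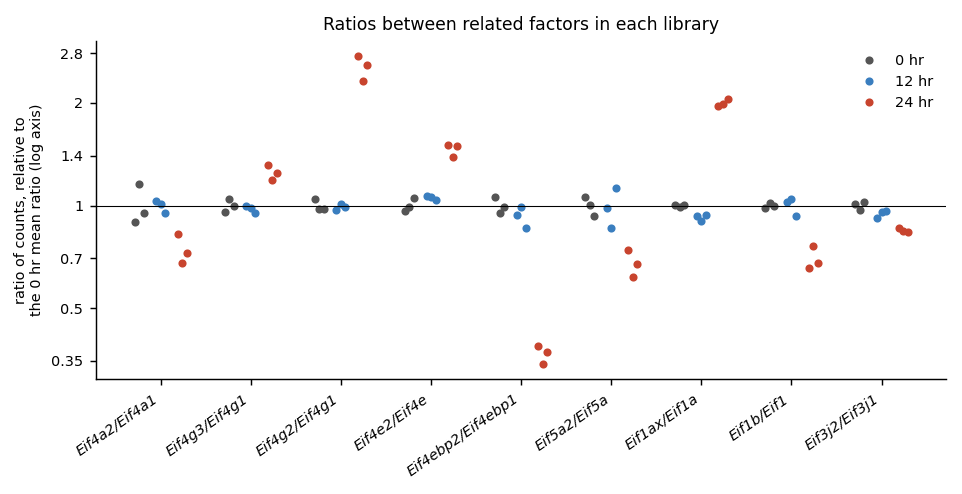
Ratio of the counts of 9 pairs of related genes (x axis) in each library, relative to the mean ratio of the 0-hour libraries (y axis, log scale). At 24 hours the Eif4g2/Eif4g1 and Eif1ax/Eif1a points are highest and the Eif4ebp2/Eif4ebp1 points lowest, and the 12-hour points stay near 1.

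Other genes of translation, a list of 50 that holds poly(A)-binding proteins, release factors, mTOR pathway regulators and phosphatase subunits, were read beside the members. Of these, 48 were tested in each comparison, and 0 were called at 12 hours, where 7 had an unadjusted p under 0.05, beside 21.4% of all tested genes, and DESeq2 also called 0. At 24 hours 6 were called higher and 6 lower of the 48, shares near the 12% and 16.8% of all tested genes, with a median log2 fold change of -0.07. Pabpc1, the main poly(A)-binding protein, had 4057, 3777 and 3947 CPM at 0 hours and 7665, 7359 and 7782 CPM at 24 hours, a log2 fold change of 0.95 (SE 0.045, edgeR's adjusted p = 1e-09). Ppp1r15a (GADD34), which directs the removal of phosphate from eIF2α, had 31.6, 32 and 32.1 CPM at 0 hours, 39.5, 40 and 39.5 CPM at 12 hours, and 71.6, 76.7 and 75.1 CPM at 24 hours. Its libraries were separate at all 3 times, with a log2 fold change of 1.22 at 24 hours (SE 0.047, edgeR's adjusted p = 2e-10).

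Larp1, a repressor of mRNAs with a pyrimidine start, had 404, 399 and 402 CPM at 0 hours and 178, 204 and 182 CPM at 24 hours, a log2 fold change of -1.10 (SE 0.050). Mknk2, a kinase of eIF4E, fell by 1.14 (SE 0.053) on the log2 scale and Mtor by 0.86 (SE 0.061), and Pabpc4 rose by 0.88 (SE 0.043). After the length and GC correction 8 of the 48 genes were called at 24 hours in place of 12, where 12.8% of all tested genes were called higher and 12.6% lower. The values given here for single genes of this list are without that correction.

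Transcript length ran along with the changes at 24 hours. The longest protein-coding transcript of the called members had a median of 1939 bases for the 21 higher genes and 4919 bases for the 6 lower genes, against 2713 bases for the 36 that were not called. Spearman's rho between length and log2 fold change was -0.40 over the 63 members and -0.24 over 11417 tested genes, where genes share libraries and are not independent, so these are descriptions. With loess offsets for length and GC, 22 members were called higher and 4 lower, beside 12.8% and 12.6% of all tested genes, and the median over the members was 0.40. As without the offsets, 48 members were above 0 and 15 below. The lower calls of Eif4g1 and Eif2ak4 and the higher calls of Eif2s1 and Eif4a1 were lost. The part of length in these changes was not tested.

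**Figure D5:**
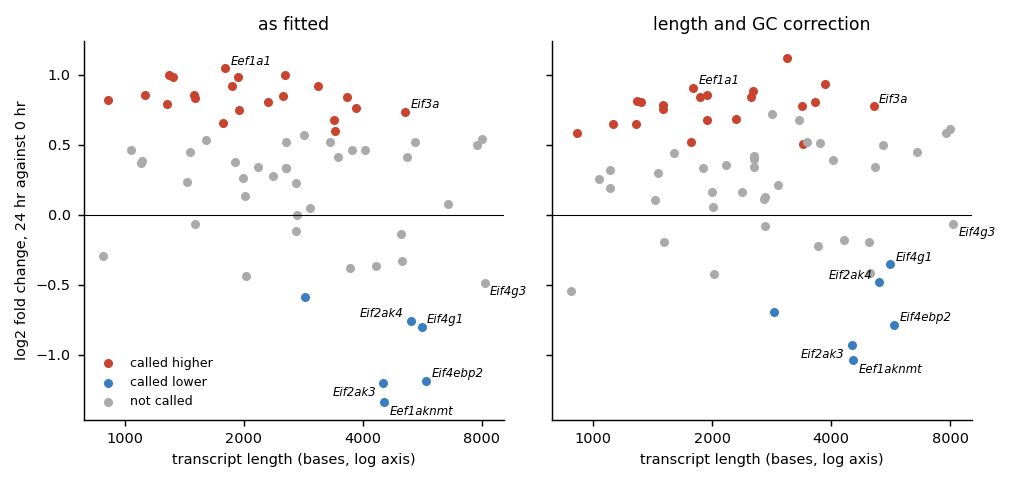
Log2 fold change at 24 hours against 0 hours (y axis) of the 63 members by the length of the longest protein-coding transcript (x axis, bases, log scale), as fitted (left) and after the length and GC correction (right), colored by the call as fitted. The 6 genes called lower have transcripts of 2865 to 5784 bases, and Eif4g1 moves from -0.80 to -0.35 with the correction.

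Promoter windows of 250 bases before to 50 after the start were taken from RefSeq (GRCm38.p6) for the 51 members found there by symbol. Starts of genes called higher and of genes called lower are shown to set the groups side by side, from 30 bases before to 15 bases after the start, 5′ to 3′ on the strand of the gene, with runs of a C and at least 7 further C or T in capitals. Eef1a1 (chr9:78481710-78481754, minus strand), Eif2s3x (chrX:94212637-94212681, minus) and Eif3f (chr7:108934385-108934429, plus) were called higher, and Eif4ebp2 (chr10:61452655-61452699, minus) and Eif2ak3 (chr6:70844485-70844529, plus) were called lower.
Eef1a1: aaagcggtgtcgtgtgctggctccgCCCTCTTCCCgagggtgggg
Eif2s3x: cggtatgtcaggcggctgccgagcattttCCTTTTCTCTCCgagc
Eif3f: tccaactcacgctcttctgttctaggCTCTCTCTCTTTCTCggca
Eif4ebp2: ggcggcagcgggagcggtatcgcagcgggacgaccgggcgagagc
Eif2ak3: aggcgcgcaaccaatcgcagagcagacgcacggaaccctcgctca

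The 3 genes called higher have such a run at the start and the 2 called lower do not, but these were picked as examples. Over all members with a window, a run beginning within 50 bases of the start was found in 8 of 16 called higher, 1 of 5 called lower and 12 of 29 not called, against 31.4% of the 9147 tested genes with a window. A start that reads C and then at least 4 C or T was found in 2 members, Eif2s3x and Eif3f, and in 2.91% of tested genes. The start positions are those of RefSeq, which for Eef1a1 and Eif2s3x lie inside the gene as the count table draws it, and starts in MyC-CaP cells were not measured.

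The E-box CACGTG, the motif that MYC binds, was searched in the same windows, since the line carries a MYC transgene. It reads the same on both strands. It was found in 14 of the 51 members (27.5%), against 12% of tested genes and 8.09% of all 27025 genes with a window. The 14 comprised 5 of 16 members called higher, 2 of 5 called lower and 7 of 29 not called. Windows of 40 bases around the E-box, in capitals, are shown for Eef2 (chr10:81176571-81176610, plus, 43 bases before the start) and Eif4a1 (chr11:69672590-69672629, minus, 189 bases before), both called higher, for Eif4g1 (chr16:20672656-20672695, plus, 54 bases before, the first of 2 in its window) and Eef1aknmt (chr1:162548470-162548509, minus, 147 bases before), both called lower, and for Eif4e (chr3:138527023-138527062, plus, 228 bases before, the first of 2), which was not called.
Eef2: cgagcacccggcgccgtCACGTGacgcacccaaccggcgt
Eif4a1: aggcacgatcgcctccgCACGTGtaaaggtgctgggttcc
Eif4g1: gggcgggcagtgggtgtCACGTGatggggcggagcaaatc
Eef1aknmt: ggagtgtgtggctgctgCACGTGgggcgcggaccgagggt
Eif4e: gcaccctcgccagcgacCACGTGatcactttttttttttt

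E-boxes thus stood in windows of genes that rose, fell and stayed near their level. For Eif4e, Eif4g1 and Eef1aknmt the RefSeq start lies inside the gene as the count table draws it. The GC box GGCGGG, on either strand, was found in 66.7% of members and 68.7% of tested genes, and TGATGNAAN, the element bound by C/EBP and ATF factors, in 3.92% of members and 2.55% of tested genes. A match describes letters in the window and not binding, which was not measured.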

How the data were processed

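RNA-Seq of 9 MyC-CaP libraries was used. The authors trimmed reads with Cutadapt, aligned them to GRCm38.p6 with STAR and counted them per gene (Gencode vM24) with featureCounts. The deposited table holds raw counts with no normalization. Strandedness of counting is not given in the sources used here. Exon lengths and overlaps came from Gencode vM21, where all 67 members had the same start and end.

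Each comparison of 2 times was fitted with edgeR 4.0.16 (filterByExpr, TMM factors, quasi-likelihood test, Benjamini-Hochberg adjustment over all tested genes, in R 4.3.3). Total counts were 41881191 to 52993821 per library. Limma 3.58.1 and DESeq2 1.42.0 were alternatives, as were other scalings and filters, 1 fit of all libraries, the replicate block, edgeR's test against 1.5-fold, length and GC offsets (loess span 0.3) and each library left out. TMM factors without the members were added after seeing the data. On data simulated with 1 fixed spread for all genes, not estimated from these libraries, 96.5% to 99.5% of 200 genes changed 2-fold were recovered. This does not cover changes near 1.5-fold. Members and lists were chosen with earlier results of these data known. Named genes are members called in any comparison, the 2 most abundant per kilobase of each group and members of pairs, and other members named were chosen after their values were seen. Of the other list, up to 6 called genes per comparison were named.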

Additional observations from a re-analysis of the deposited data

Results flagged for a closer look

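Eif1a stood apart between the 2 times. Against 0 hours it had a log2 fold change of 0.11 at 12 hours and -0.59 at 24 hours, and the libraries of the 3 times did not overlap. The difference between 12 and 24 hours, tested on those libraries, was -0.67 (SE 0.033, edgeR's adjusted p = 1.1e-09), and it was called under all alternatives tried. Both changes against 0 hours share the 0-hour libraries, and the difference at 12 hours was below 1.5-fold. Its adjusted p at 12 hours (0.031 in edgeR's quasi-likelihood test) was 0.053 with total counts, 0.073 with the replicate block, 0.15 with the length and GC correction and over 0.05 in 5 of 6 fits with 1 library left out, so a change at 12 hours was not held by these fits.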

How the results depend on the processing

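Depth did not limit the common members, while Eef1akmt3 and the 4 untested members had too few counts for a change to be read. Median log2 fold changes of the members at 12 hours were -0.0241 with total counts, -0.0263 with the length and GC correction and -0.0265 with that correction and the replicate block. At 24 against 0 hours the medians were 0.4844 with upper-quartile factors, 0.2313 with total counts, 0.3973 with the length and GC correction, 0.3981 with it and the replicate block, and 0.4237 to 0.4737 with 1 library left out. At 24 against 12 hours they were 0.4775, 0.2302 and, in 1 fit of all 9 libraries, 0.4348, and 0.445 to 0.4714 with 1 library left out. With total counts 10 members were called lower at 24 against 0 hours, and 18 were called at 24 against 12 hours, 11 of them higher, where 4.25% of all tested genes were called higher and 24.8% lower. By the adjusted p alone, 5 members were called at 12 hours (3 higher, 2 lower), 58 at 24 against 0 hours (45 and 13) and 59 at 24 against 12 hours (47 and 12), and 3, 31 and 32 genes of the other list. The cause of these shifts was not tested.

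Sign changes were found in these genes, of which Eif2b1, Eef2k and Eif3b were past the adjusted p at 24 against 12 hours, and Eif2b1 at 24 against 0 hours. With total counts, 24 against 0 hours, Eif2b1 was at -0.0872, Eef2k at -0.1415, Eif4h at -0.2208 and Eif3b at -0.1723, and 24 against 12 hours Eif2b1 at -0.0151, Eef2k at -0.0573, Eif4h at -0.1762, Eif3b at -0.1199 and Eef1akmt3 at -0.2031. Eif4h at 24 against 0 hours was also at -0.0042 with no filter and -0.0039 with at least 10 counts in every library, and between -0.01 and 0.0221 with 1 library left out. At 24 against 12 hours Eif4a3 was at 0.0158 with upper-quartile factors and between -0.044 and 0.022 with 1 library left out, and Eef1akmt3 at -0.0094 with limma-voom and between -0.2617 and 0.1759. At 24 against 0 hours Eef1akmt3 was between -0.394 and 0.0446 with 1 library left out. At 12 hours 28 members changed sign in some alternative.

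Of the 27 members called at 24 against 0 hours, 17 were called under all alternatives and with each library left out, and 15 of 28 at 24 against 12 hours. Same-numbered libraries showed no clear shared deviation, with correlations of -0.157 to 0.088. With 3 libraries per time this cannot exclude that the replicate numbers pair the samples. With the replicate block 27 and 28 members were called, as without it, and at 12 hours the adjusted p of Eif1a went from 0.031 to 0.073 (edgeR).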
